A study of Malus domestica with 4 samples.

Results

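A set of 101 genes was chosen, of 63514 in the apple genome annotation. Their levels were unequal between fruit moved to 0.8 kPa oxygen out of 0.4 kPa and fruit kept at 0.8 kPa. Their measured levels differed little between fruit kept at the 2 oxygen levels. Of the 101 genes, 82 were higher and 19 were lower after the shift. They were chosen on 2 contrasts of these data, from CPM, the count of a gene per 1000000 counts in its column. A gene was kept when it reached 10 CPM in shifted or unshifted fruit, reached 2 CPM in fruit at 0.8 kPa, had a log2 ratio shifted/0.8ox of at least 1.2 in size and had a log2 ratio 0.4ox/0.8ox under 0.5 in size, both on the scale of log2(CPM + 0.5).

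The tissue was the cortex, the edible flesh, of apple (Malus domestica) fruit of the cultivar Granny Smith, picked at commercial ripeness and stored cold. RNA was sequenced in fruit from the normoxic condition before low oxygen was applied (T0), after 24 days at 0.4 kPa oxygen (0.4ox), after 24 days at 0.8 kPa oxygen (0.8ox) and in fruit of the 0.4 kPa store once it was shifted to 0.8 kPa (shifted). The labels give no day for the shifted fruit. By the study's scheme the shift came after the sampling at 24 days. Shifted fruit therefore differ from 0.8ox fruit in oxygen history and in a longer storage time. They also differ in chamber, since each atmosphere had a chamber of its own. These differences cannot be told apart. Fruit of 0.8ox were never shifted, so "after the shift" names the shifted sample and neither a change within the same fruit nor the cause of a difference.

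Plant cells that run short of oxygen turn from respiration to fermentation, in which pyruvate decarboxylase and alcohol dehydrogenase make ethanol. The response is switched on by group VII ethylene response factors, transcription factors that are broken down while oxygen is present and persist when it is scarce. Low oxygen also slows ripening in stored apples, which is driven by ethylene. ACC oxidase makes this hormone, and polygalacturonase takes apart the pectin of the cell wall.

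The deposited tables hold 1 estimated count per gene and condition, merged from 3 libraries (for shifted, as read from the steps of its low counts), with a modelled variance. Each value below is therefore a single merged value, and the number after ± is the square root of that variance, converted to CPM. The column totals were 9553180 counts for T0, 5445598 for 0.4ox and 6471124 for 0.8ox. A separate table, called the shift table here, holds 0.8ox again, with 5363827 counts, beside shifted, with 4865029. Because the libraries are merged, a difference between shifted and 0.8ox has no replicate check in these tables. For a few genes with low counts, only the lower value could be split into libraries. ACC oxidase (MDP0000195885) stood at 107.1 CPM in T0, 2610 under 0.4ox and 6460 under 0.8ox, and in the shift table at 8824 for 0.8ox and 3877 for shifted. ACC synthase (MDP0000413933), which makes the precursor of ethylene, was between 0.979 and 1.44 CPM in every condition, from 5.25 to 10.6 counts.

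The files do not pair the gene identifiers with gene names. None of the 101 genes was annotated in the study's tables used here, of which the gene list is held only in part (1998 genes), and 0 of the identifiers matched the RefSeq gene table. The roles of these genes are therefore not given. The 2 genes with the highest and the 2 with the lowest ratio shifted/0.8ox are named by identifier, and the others are described by their values.

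The steps of the choice show how small a share of the genes it kept. Among the genes of the shift table, 12117 reached 10 CPM in 0.8ox or shifted, and 413 of them (3.41%) had a log2 ratio of 1.2 or more in size, 326 higher (2.69%) and 87 lower (0.718%). Of the 413 genes, 52 were under 2 CPM in 0.8ox of the table that pairs it with 0.4ox (the other table from here on), all of them higher after the shift, and 260 had a log2 ratio 0.4ox/0.8ox of 0.5 or more in size. The remaining 101 were 1.07% of the 9421 genes that met the minimum levels and were flat between the 2 oxygen levels. Flat refers to the measured ratio alone, with no error beside it. Some of the 101 had few counts in that contrast, such as 8.34 in 0.4ox and 14.9 in 0.8ox, so equal levels are not shown. The higher genes were 0.87% and the lower genes 0.202% of these flat genes. In whole cortex tissue, fewer cells of a type and less RNA per cell cannot be told apart. These contrasts chose the genes, so the counts are a description and carry no test.

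**Figure D1:**
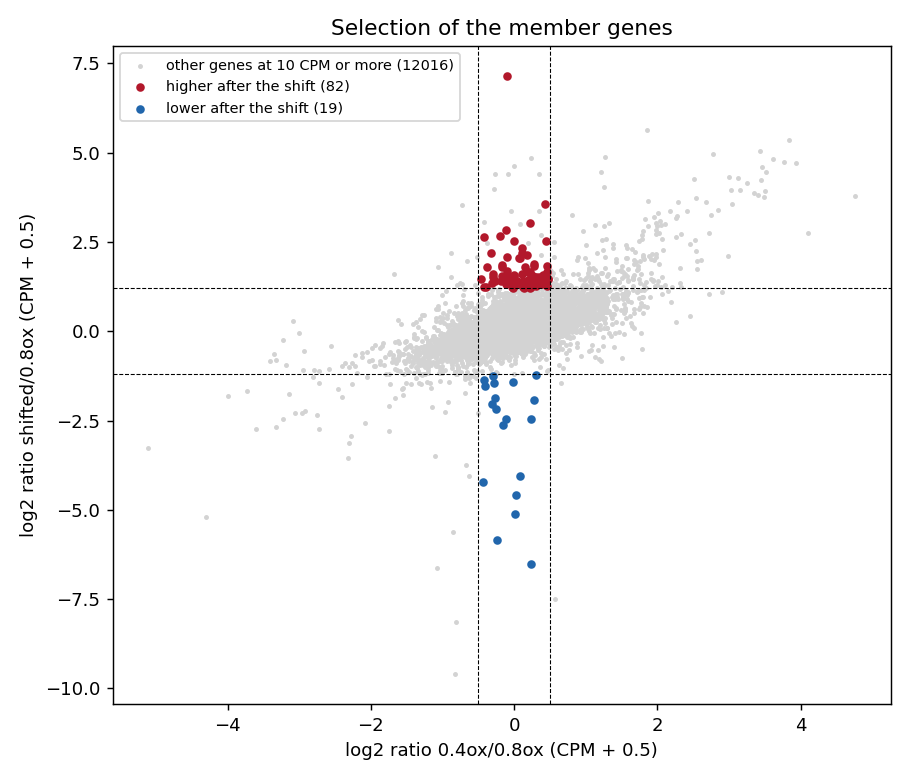
Each point is a gene at 10 CPM or more in 0.8ox or shifted, with its log2 ratio 0.4ox/0.8ox on the horizontal axis and its log2 ratio shifted/0.8ox on the vertical axis (both from CPM + 0.5), and dashed lines mark the limits of 0.5 and 1.2. The 82 higher genes (red) and 19 lower genes (blue) lie in the middle column, and the grey points among the red ones are genes under 2 CPM in 0.8ox.

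Many of the higher genes lay close to the limit, and the lower genes had the larger median ratio in size. The log2 ratio shifted/0.8ox of the 82 higher genes ran from 1.21 to 7.15 with a median of 1.51. It was under 1.5 in 40 of them, between 1.5 and 2 in 27, between 2 and 3 in 12 and over 3 in 3. The 19 lower genes ran from -6.52 to -1.22 with a median of -2.17, and 6 of them were beyond -3, among them the 3 with 0 counts after the shift, whose ratio depends on the pseudocount. The median of all 12117 genes was 0.09, and 64.7% of the flat genes had a ratio above 0.

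Genes on either side of the limit had nearly the same ratios. The last higher genes inside it stood at 5.71 CPM in 0.8ox and 13.9 after the shift (log2 ratio 1.21) and at 11.1 and 26.4 CPM (1.22). A gene at 6.04 and 14.5 CPM (1.19) fell just outside. Among the lower genes, a gene at 53.6 and 22.8 CPM (-1.22) was inside, and genes at 46.1 and 19.996 CPM (-1.18) and at 12.4 and 5.18 CPM (-1.19) were outside.

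The higher genes were mostly weakly expressed in both samples of the shift table. In the shift table their median was 5.34 CPM in 0.8ox and 17.1 CPM after the shift, where they ranged from 10.05 to 394.8 CPM. Of the 82 genes, 64 were under 10 CPM in 0.8ox of that table and 35 rested on fewer than 25 counts there. After the shift 52 of them were between 10 and 20 CPM, 23 between 20 and 100 and 7 at 100 or more. In the other tables their medians were 7.54 CPM in T0, 7.92 under 0.4ox and 6.92 under 0.8ox. Their summed level was 3443 CPM after the shift and 959.8 CPM in 0.8ox of the same table, while the sums in T0, 0.4ox and 0.8ox of the other tables were 1089, 1650 and 1445 CPM.

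The lower genes had to reach 10 CPM in 0.8ox to be chosen, while the higher genes could reach it in shifted alone, so the 0.8ox levels of the sets are not comparable. The median of the lower genes was 28.2 CPM in 0.8ox of the shift table and 6.37 CPM after the shift, where the highest was 22.8 CPM. In the other tables the medians were 36.0 CPM for T0, 17.5 for 0.4ox and 22.8 for 0.8ox. Their summed level went from 1601 CPM in 0.8ox to 155.7 CPM after the shift. After it 12 of the 19 were under 10 CPM, and 3 had no counts at all.

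**Figure D2:**
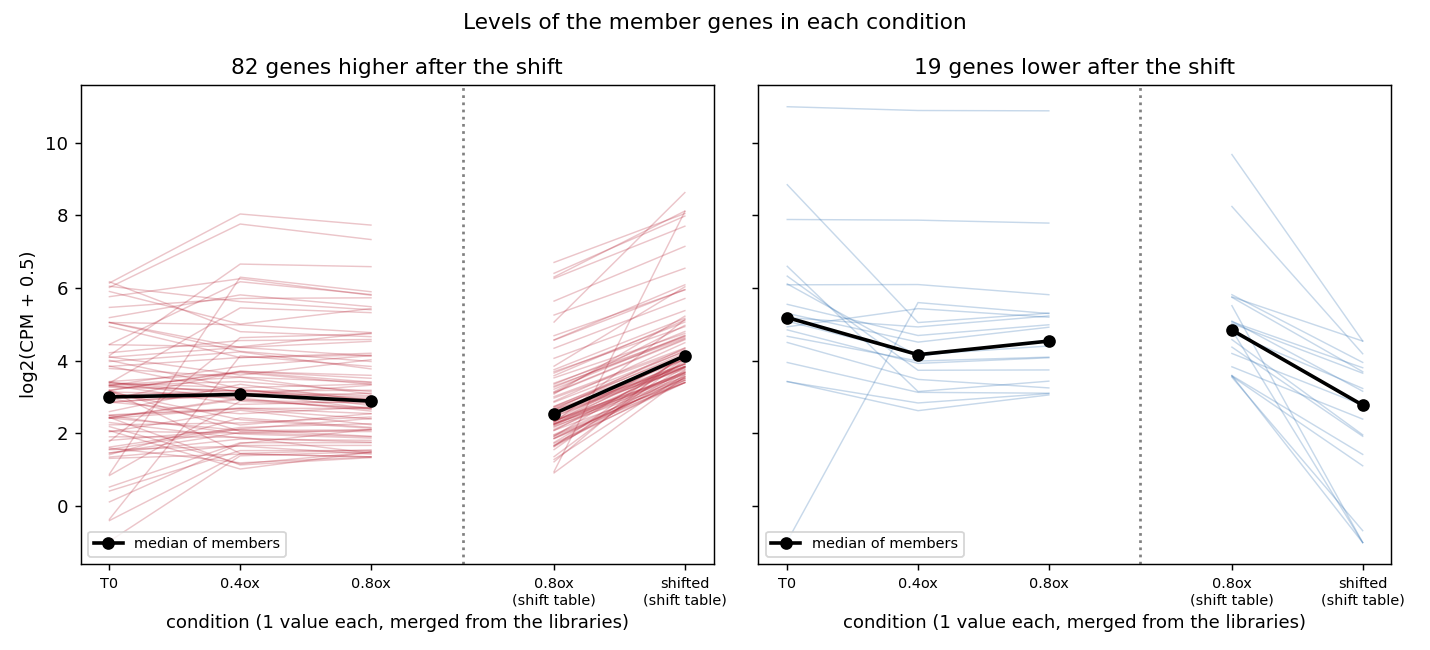
Thin lines follow each gene through its merged values in T0, 0.4ox and 0.8ox and, right of the dotted line, through 0.8ox and shifted of the shift table (vertical axis log2(CPM + 0.5)), and black points are medians over the genes. The median of the 82 higher genes moves from 5.34 to 17.1 CPM in the shift table, and that of the 19 lower genes from 28.2 to 6.37 CPM.

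Of the 7 higher genes at 100 CPM or more after the shift, MDP0000143958 was the most abundant. It stood at 64.3 ± 5.12 CPM in T0, at 216.5 ± 23.6 CPM under 0.4ox and at 160.9 ± 13.0 CPM under 0.8ox. In the shift table it stood at 33.0 ± 3.95 CPM in 0.8ox and 394.8 ± 42.2 after the shift, from 176.9 and 1921 counts. This is a ratio of 11.97 within the shift table (log2 ratio 3.56), while shifted was less than 3 times the 0.8ox level of the other table, because the same condition was 20.5% as high in the shift table. The gene was higher in both 0.4ox and 0.8ox than in T0, with log2 ratios of 1.75 (SE 0.19) for 0.4ox and 1.32 (SE 0.16) for 0.8ox. Both passed the test against T0 described below.

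MDP0000760432 had the highest ratio. It was at 9.93 ± 1.78 CPM in T0, at 9.08 ± 1.88 CPM under 0.4ox and at 9.78 ± 1.64 CPM under 0.8ox, 3 values that lie within their errors of each other. In the shift table it was at 1.44 ± 0.725 CPM in 0.8ox and 275.0 ± 29.7 after the shift, from 7.71 and 1338 counts, a ratio of 191 on CPM with 0.5 not added (log2 ratio 7.15 on CPM + 0.5). Its log2 ratio against T0 was -0.13 (SE 0.40) for 0.4ox and -0.02 (SE 0.35) for 0.8ox, and neither passed. Its 0.8ox level in the shift table was 14.7% of that in the other table, and the shifted level was far above both.

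The other 5 abundant genes were between 2 and 4 times as high after the shift as in 0.8ox of the shift table. They stood at 49.4, 76.5, 78.6, 84.3 and 103.9 CPM in 0.8ox of that table, and at 141.2, 207.7, 277.4, 252.0 and 264.5 CPM after the shift, in the same order. In the other table their 0.8ox levels were 44.3, 56.1, 55.3, 59.2 and 95.8 CPM. For these 5 genes the 0.8ox level in the shift table was thus 108.5% to 142.5% of that in the other table. The shifted value lay above both.

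The 2 genes with the lowest ratio had moderate levels in every condition but shifted, where they had no counts. MDP0000040255 was at 30.1 ± 5.98 CPM in T0, at 42.7 ± 13.6 CPM under 0.4ox and at 36.2 ± 8.24 CPM under 0.8ox, which overlap within their errors. In the shift table it was at 45.2 ± 11.2 CPM in 0.8ox, from 242.6 counts, and had 0 counts after the shift, so it was at least 73.4-fold lower against a floor of 3 counts over the merged column. MDP0000360547 was at 33.5 ± 12.6 CPM in T0, 17.5 ± 8.59 under 0.4ox and 20.7 ± 7.26 under 0.8ox, and the shift table put it at 28.2 ± 13.2 CPM for 0.8ox. It had 151.4 counts there and 0 after the shift, at least 45.8-fold lower against the same floor. These bounds cover counting error only.

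Neither gene passed the test against T0. The log2 ratios of MDP0000040255 were 0.51 (SE 0.54) for 0.4ox and 0.27 (SE 0.44) for 0.8ox, and those of MDP0000360547 were -0.94 (SE 0.89) and -0.70 (SE 0.74). Both carried large modelled variances in 0.8ox of the shift table, 4.65 and 14.6 times the running median of genes at like counts.

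**Figure D3:**
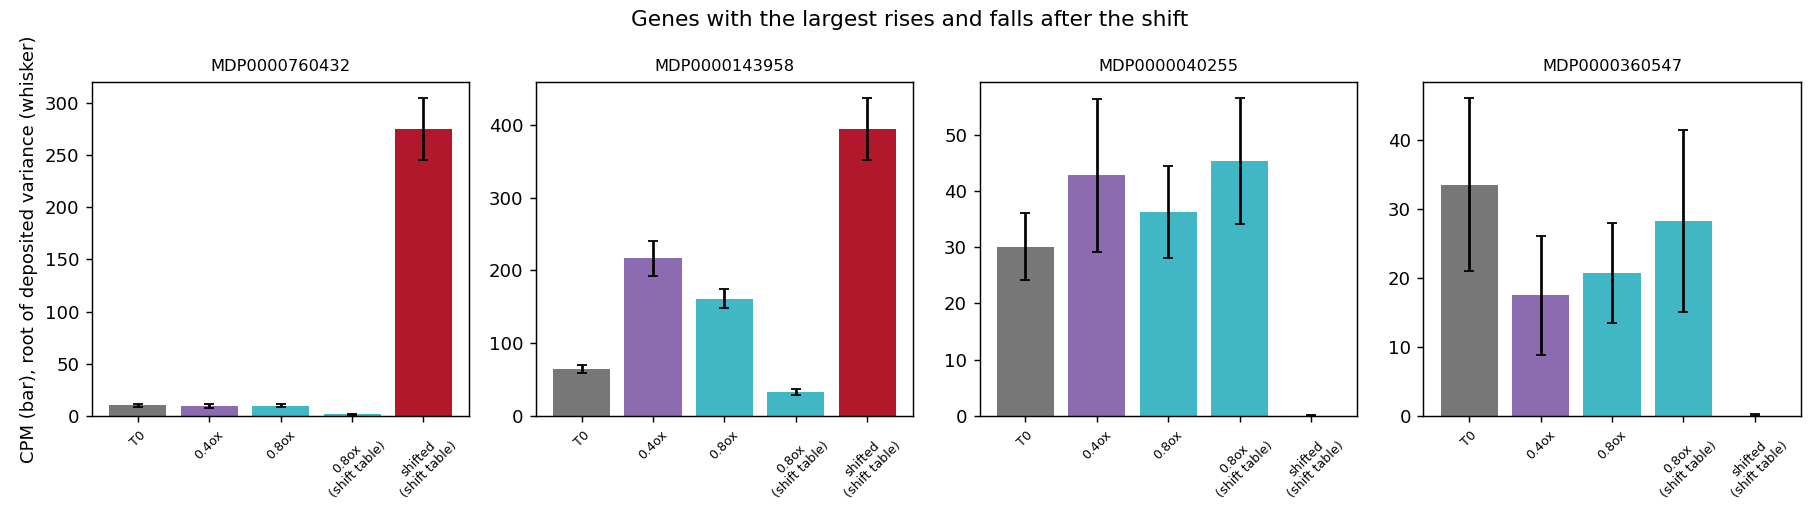
Bars give the merged CPM of the 2 genes with the highest and the 2 with the lowest ratio shifted/0.8ox in each condition, from 0, and whiskers the square root of the deposited variance, with a scale of its own for each gene. MDP0000760432 and MDP0000143958 stand highest after the shift, at 275.0 and 394.8 CPM, and MDP0000040255 and MDP0000360547 have no counts there.

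A pair of other lower genes had the highest 0.8ox levels of the 19 in either table. The first stood at 2030 CPM in T0, at 1889 CPM under 0.4ox and at 1878 CPM under 0.8ox, and the shift table put it at 815.2 CPM for 0.8ox and 22.8 CPM for shifted. The second stood at 236.1, 233.1 and 220.4 CPM in the same 3 conditions, and at 302.6 and 17.8 CPM in the shift table. Both were thus at even levels in T0 and in both low oxygen conditions. The modelled variance of the second gene after the shift was 42.4 times the running median at like counts, while that of the first was 1.008 times.

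The T0 sample did not enter the choice, and the comparisons with it ask whether these genes also differed between fruit before low oxygen and after 24 days in it. Fruit of 0.4ox and 0.8ox had also been stored for those 24 days, and no fruit kept that long in normoxia was sequenced. Oxygen and storage time therefore cannot be told apart in these comparisons. The counts of 0.4ox and 0.8ox did enter it, and both comparisons share the T0 sample, so each is given side by side as a description. Each log2 ratio was divided by its SE and tested two-sided on the normal distribution, and a gene passed at an adjusted p under 0.001 (Benjamini-Hochberg over all genes tested). In 0.4ox against T0, 16 of the 101 genes passed (15.8%), 8 higher and 8 lower, where 16.9% of all tested genes passed, 7.69% higher and 9.18% lower. In 0.8ox against T0, 17 passed (16.8%), 9 higher and 8 lower, where 16.6% of all tested genes passed, 6.69% higher and 9.94% lower. The shares were near those of all genes.

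Most of the 101 genes passed in neither comparison. They were 83 in number, 68 of the 82 higher and 15 of the 19 lower genes. Another 15 genes passed in both, a count from which nothing is read, since the share of all genes that did was not computed. Of the flat genes 24.1% passed in 1 or both comparisons, against 17.8% of the 101. A gene that did not pass may still have differed from T0, since many of the higher genes rest on few counts.

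The direction against T0 was mixed in the higher genes and mostly downward in the lower genes. The median log2 ratio of the higher genes was 0.20 for 0.4ox and 0.04 for 0.8ox, beside -0.08 and -0.06 over all tested genes. In T0, 39 of the 82 higher genes were above their 0.8ox level. The median of the lower genes was -0.86 for 0.4ox and -0.57 for 0.8ox, and 16 of the 19 were above their 0.8ox level in T0, where 44.2% of the flat genes were.

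Over all tested genes 9.18% passed as lower than T0 in 0.4ox and 9.94% in 0.8ox. Among the 19 lower genes 4 did in each comparison (21.1%), and all 4 did in both. Among the 82 higher genes 4 did in each comparison, and 3 did in both. These counts are too small to compare the sets, and the share of all genes that passed as lower in both was not computed. The most changed of the lower ones fell from 458.5 CPM in T0 to 32.7 CPM under 0.4ox (log2 ratio -3.81, SE 0.21) and to 39.2 CPM under 0.8ox. Within the shift table this gene stood at 55.9 CPM in 0.8ox and 15.0 after the shift. The next fell from 96.4 CPM in T0 to 8.40 CPM under 0.4ox (log2 ratio -3.52, SE 0.26) and 10.3 CPM under 0.8ox, and was at 13.8 and 4.76 CPM in the shift table. The other 2 fell from 79.9 and 68.8 CPM in T0 to 12.8 and 16.99 CPM under 0.4ox. Of the 3 higher genes that passed as lower in both, the most abundant in T0 stood there at 71.6 CPM. It fell to 27.4 CPM under 0.4ox (log2 ratio -1.39, SE 0.23) and 24.8 under 0.8ox. In the shift table it was at 23.2 and 61.7 CPM.

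The 8 genes that passed as higher in 0.4ox than in T0 all belonged to the 82 higher genes, which make up most of the set. A gene at 1.34 CPM in T0 stood at 78.2 CPM under 0.4ox (log2 ratio 5.86, SE 0.43) and at 59.2 CPM under 0.8ox, and within the shift table it stood at 84.3 CPM in 0.8ox and 252.0 after the shift. A gene at 0.280 CPM in T0, from 2.67 counts, stood at 17.1 CPM under 0.4ox and 13.9 under 0.8ox, and at 52.0 CPM after the shift. Another rose from 17.2 CPM in T0 to 100.6 CPM under 0.4ox (log2 ratio 2.55, SE 0.24) and 95.8 under 0.8ox. A further gene rose from 2.94 CPM in T0 to 24.4 CPM under 0.4ox (log2 ratio 3.05, SE 0.35) and 26.3 under 0.8ox, but the shift table put it at 4.42 CPM for 0.8ox and 34.7 for shifted. These 4 passed against T0 in both oxygen levels.

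Of all the lower genes, 1 was near 0 in T0. It stood at 0.0127 CPM there, under 1 count, and at 48.0 CPM under 0.4ox and 38.9 under 0.8ox, and it was at 53.6 and 22.8 CPM in the shift table. It did not pass against T0, with log2 ratios of 11.9 (SE 4.15) for 0.4ox and 11.6 (SE 4.15) for 0.8ox. The SE is large because T0 held under 1 count, so not passing is no sign of an equal level.

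**Figure D4:**
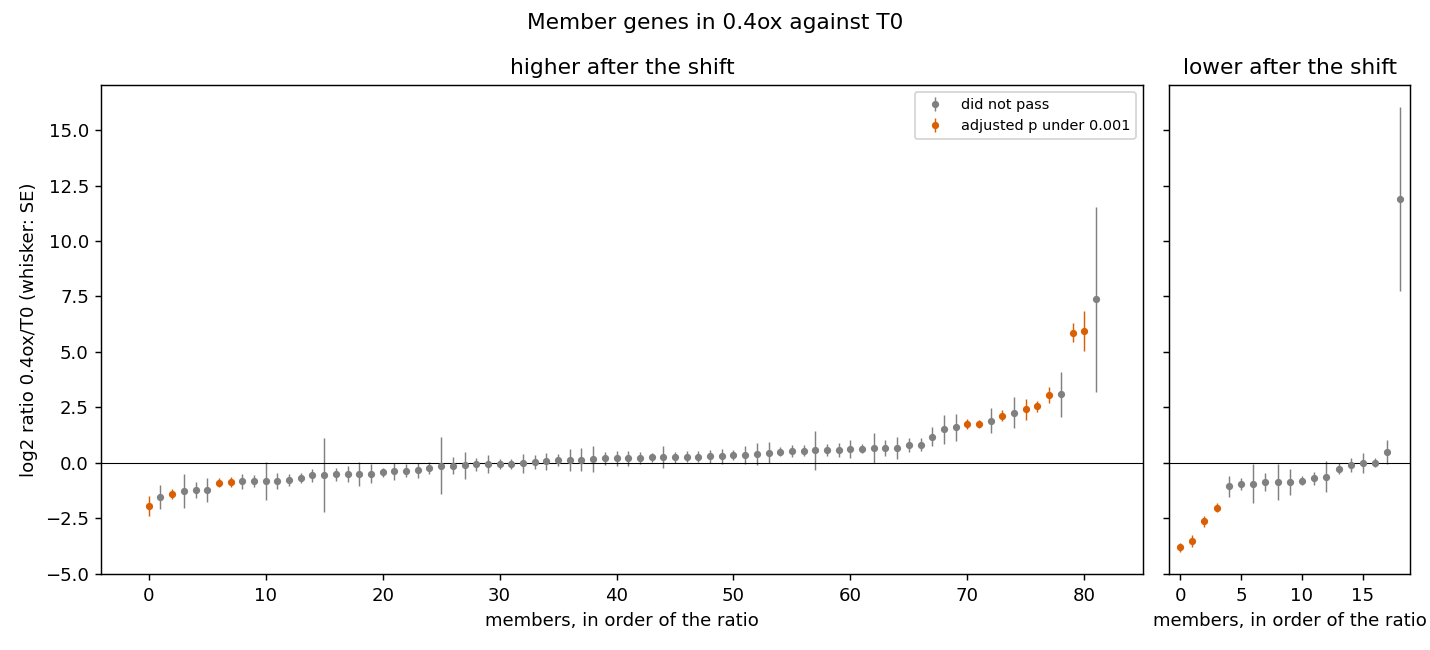
Points give the log2 ratio 0.4ox/T0 of each gene, in order of the ratio, with whiskers of 1 SE, for the 82 higher genes (left) and the 19 lower genes (right), and orange marks an adjusted p under 0.001. In the higher genes 8 passed above 0 and 4 below, and in the lower genes 4 passed, all below 0.

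The 2 tables that hold 0.8ox did not give the same level for every gene. For the flat genes the 0.8ox level in the shift table was at a median of 132.7% of that in the other table (5th to 95th percentile 47.3 to 143%). Low counts in the shift table lay on sums of whole reads (99.9% of genes under 3 counts, within 0.0002 counts), while the other tables also hold fractions of reads. Of the 82 higher genes 16 were under 50% (19.5%), where 5.55% of the flat genes were, and of the 19 lower genes 1 was (5.26%). The median was 110.8% in the higher and 137.3% in the lower genes.

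Of the 16 higher genes under 50%, 11 had a shifted level that did not exceed the 0.8ox level of the other table, and 5 had one that did. An example stood at 42.8 CPM in 0.8ox of the other table, and in the shift table at 1.39 CPM in 0.8ox and 11.3 after the shift. For the higher genes at 50% or more, and for the lower genes, the limits of the choice and the range of these percentages leave no room for another order, so nothing is read from them. The tables were counted separately and their columns are scaled by their own sums, so this comparison of levels is a description.

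**Figure D5:**
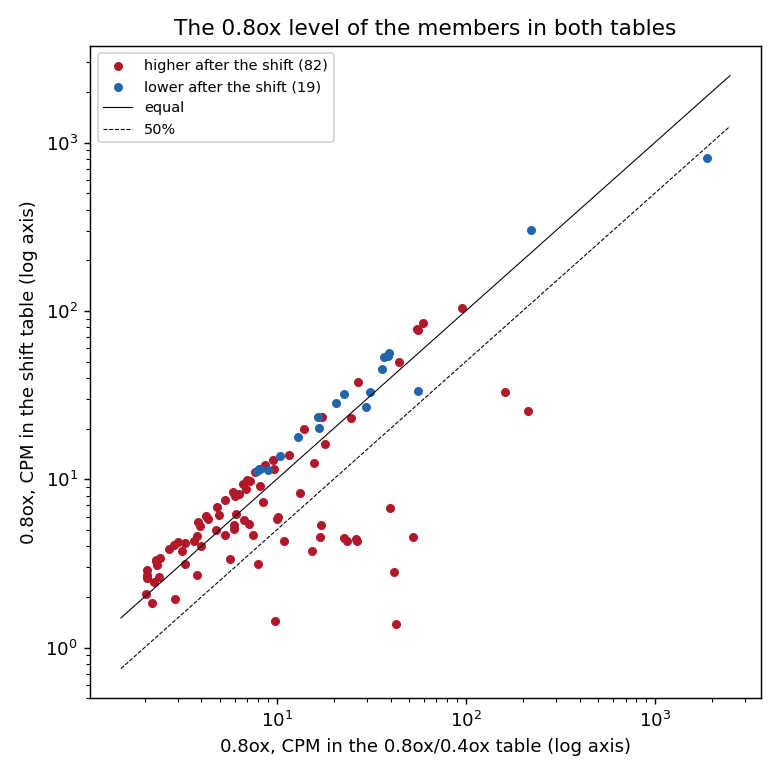
Each point is a gene of the set, with its 0.8ox level in CPM in the table with 0.4ox on the horizontal axis and in the shift table on the vertical axis, both log axes, and with lines for equal levels and for 50%. Of the higher genes (red) 16 lie below the 50% line, and of the lower genes (blue) 1 does.

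The modelled variances of the chosen genes were raised more often than those of flat genes. Over 2 times the running median at like counts were 8 of the 82 higher genes (9.76%) and 7 of 14 lower genes with a value (50%) after the shift, where 0.754% of the flat genes were. In 0.8ox of the shift table they were 10 of 79 (12.7%) and 8 of 19 (42.1%), beside 0.828% of the flat genes. The part of these variances in the choice of the genes was not tested.

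For genes with few counts the merged value could be split into whole reads of the 3 libraries, because 1 read was worth 0.263, 0.382 or 0.615 counts in the 3 libraries of 0.8ox. All 7 higher genes under 14 counts in 0.8ox had a single solution within 6e-05 counts. MDP0000760432 had 8, 5 and 6 reads, which scaled to 6.31, 5.73 and 11.1 counts. Its low level in 0.8ox of the shift table was thus found in all 3 libraries. Its count after the shift could not be split, and the choice favoured genes low in 0.8ox of this table. The split is therefore no replicate check of the difference. The split covers only the counts of the shift table, while the other table held 63.3 counts of this gene in 0.8ox. In shifted, 2 of 3 lower genes with fewer than 14 counts but more than 0 had a solution, and the gene at 0.619 counts had none. In 0.8ox the coefficient of variation between libraries ran from 5.04% to 56.9% over the 7 genes, and the most uneven had 16, 13 and 2 reads.

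When the shift table was tested in the same way, 64 of the 98 genes with counts in both columns passed, 54 higher and 10 lower, where 1.96% of all tested genes passed, 1.54% higher and 0.416% lower. This contrast chose the genes, so nothing is read from these counts. The 3 genes at 0 counts after the shift were not tested.

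A list of 17 hypoxia and ripening genes, taken from the RT-qPCR primers, had 0 members in the set, where 1.07% of the flat genes were members. That share applies only to genes that met the minimum levels and were flat between the oxygen levels, which some of the 17 were not. Phosphofructokinase (MDP0000131308) had a log2 ratio 0.4ox/0.8ox of 1.49, and ACC oxidase had one of -1.31. Others could not be members, since the shift table held almost none of their counts. Alcohol dehydrogenase (MDP0000594290) had 1191 counts in 0.8ox of the other table and 2.64 in the shift table. A group VII ethylene response factor (MDP0000848905) had 507.2 and 0. Of the 13 with enough counts for the test of shifted against 0.8ox, 0 passed, where 1.96% of all tested genes did. Among the 13, 4 had an unadjusted p under 0.05, 1 higher and 3 lower. A list this short would hold few genes at these shares, so nothing is read from the counts of 0. Their median log2 ratio was -0.07, beside 0.15 over all tested genes. Pyruvate decarboxylase (MDP0000800945) was at 5965 CPM in 0.8ox of the shift table and 5707 after the shift. Polygalacturonase (MDP0000326734) was not flat between the oxygen levels, with 4.38 CPM under 0.4ox and 96.1 CPM under 0.8ox. In the shift table it stood at 137.3 CPM in 0.8ox and 3.25 CPM in shifted, so shifted was low beside 0.8ox, as 0.4ox was.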

How the data were processed

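Libraries were made with a TruSeq RNA kit and sequenced as single 50-base reads. For T0, 0.4ox and 0.8ox the authors cleaned reads with ERNE, aligned them to the apple genome (version 1.0) with TopHat2, which runs Bowtie2, and obtained each deposited estimated count and its variance with Cuffdiff, merging 3 libraries. How the shift table was aligned is not given in the sources used here. The variances were used undivided, since the sources do not say whether they describe 1 library or the merged value.

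Counts were divided by column sums to give CPM. Log2 ratios against T0 were tested with SEs from the deposited variances, for genes that had counts in both conditions and reached 10 counts in 1 of them or more. The genes and lists were chosen with earlier results of these data known. The genes named by identifier were the 2 highest and the 2 lowest by ratio shifted/0.8ox, genes of the RT-qPCR list and the ripening genes used to check the tissue, polygalacturonase among them. Alternatives were other pseudocounts, minimum levels, median centring, variances divided by 3, other thresholds, no minimum count, a minimum of 50 counts, and genes at 50% or more of their 0.8ox level. Python packages were pandas 2.3.3, numpy 2.4.6, scipy 1.17.1 and matplotlib 3.10.9.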

Additional observations from a re-analysis of the deposited data

How the results depend on the processing

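The number of genes chosen moved most with the minimum level in 0.8ox, from 101 to 44 and from 82 to 29 higher genes when 10 CPM was required in place of 2. A pseudocount of 1 gave 95 genes, of which 90 were among the 101, a pseudocount of 0.1 gave 116 (99 among them), and centring on the median ratio gave 94 (87 among them). Keeping genes at 50% or more of their 0.8ox level in the other table left 84. In 0.4ox against T0 the 16 genes that passed (8 higher, 8 lower) became 43 with the variance divided by 3 (21 higher, 22 lower) and 35 at an adjusted p under 0.05 (18 higher, 17 lower). In 0.8ox against T0 the 17 (9 higher, 8 lower) became 36 (17 higher, 19 lower) and 33 (16 higher, 17 lower). The larger counts follow from the smaller variance and the wider threshold. For the 2 genes with the highest and the 2 with the lowest ratio, only the pseudocount and the centring were varied. Neither could turn the direction of ratios this large, so nothing is read from its staying the same. No library could be left out because the tables hold merged values. No paired analysis was possible because each table has 1 merged column per condition, with no replicate columns to pair. Depth limits the 35 higher genes with fewer than 25 counts in 0.8ox.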
